A study of Mus musculus with 2 samples.

Results

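The genes of iron and metal handling were followed through the cells of the mouse stria vascularis (SV), with 10 members, namely Trf, Tfrc, Fth1, Ftl1, Slc40a1, Cp, Heph, Hmox1, Mt1 and Mt2. They were chosen by name, and all 10 were found by Ensembl identifier in both count matrices, among 27040 genes that the matrices share. The question was how the genes of iron uptake, storage and export are distributed over 3 classes of cell barcodes. A barcode was called endothelial if it held a UMI (a unique molecular identifier, which stands for 1 captured RNA molecule) of at least 4 of Pecam1, Cdh5, Cldn5, Flt1, Egfl7 and Ramp2. It was called mural, the class of pericytes and smooth muscle cells, with at least 3 of Pdgfrb, Rgs5, Vtn and Notch3 and at most 1 of the endothelial genes. It was called intermediate, after the pigmented melanocyte-like cells between the capillaries, if Dct, Tyr and Kcnj10 all had a UMI.

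The study profiled freshly dissociated SV cells of 2 fluorescent reporter lines by droplet single-cell RNA sequencing from the 3′ end. In Tie2-GFP mice the Tie2 promoter drives green fluorescence in endothelial cells (ECs), and in NG2-DsRed mice the NG2 (Cspg4) promoter drives red fluorescence in pericytes (PCs). Each library came from 20 cochleae of 10 mice aged 1 to 3 months, pooled before sequencing, and no treatment or mutation was part of the design. With 1 library per line there was no replicate, so every interval below is a 95% interval that covers counting error only, no test between conditions was possible, and classes were compared inside a library, with values of the same class in both libraries only set side by side.

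The Tie2-GFP library held 633 barcodes and 5432289 UMIs (median 6956 per barcode), and the NG2-DsRed library held 201 barcodes and 1232599 UMIs (median 4322). No barcode sequence was shared between them. The Tie2-GFP library gave 379 endothelial, 87 intermediate and 4 mural barcodes, and the NG2-DsRed library gave 58 endothelial, 97 mural and 23 intermediate barcodes. Both libraries therefore contained cells of other types than the ECs or PCs that each reporter was used to mark. Cspg4, whose promoter drives NG2-DsRed, had UMIs in 80.4% of mural, 78.3% of intermediate and 36.2% of endothelial barcodes of that library. Left out of the classes were 2 NG2-DsRed barcodes that met more than 1 rule, and 163 Tie2-GFP and 21 NG2-DsRed barcodes that met none. Those that met none had a median of 75.6% and 5.99% mitochondrial UMIs. The median depth differed between classes, at 7431 UMIs for endothelial and 15955 for intermediate barcodes of the Tie2-GFP library, and at 9146, 3027 and 10383 for endothelial, mural and intermediate barcodes of the NG2-DsRed library. Mitochondrial RNA also differed. It made up a median of 9.31% of UMIs in the Tie2-GFP intermediate class against 1.82% in its endothelial class, and 5.55% against 2.71% and 2.18% in the intermediate, endothelial and mural classes of the NG2-DsRed library. The study's own limit was 5%, which 79 of the 87 and 16 of the 23 intermediate barcodes exceeded. Of the 58 NG2-DsRed endothelial barcodes, 42 also had more than 1 of the 4 mural genes, so that class mixed both programs. The Tie2-GFP intermediate class held 300 UMIs of 5 genes listed for marginal cells (Kcne1, Kcnq1, Esrrb, Atp1b2 and Wnk2), with at least 10 in 5 of 87 barcodes. It held 146 UMIs of 3 genes listed for basal cells (Cldn11, Tjp1 and Nr2f2), with at least 10 in 2 barcodes. The NG2-DsRed intermediate class held 2 and 10 UMIs of these lists. Of 5 further pigment-cell genes, Mlana (1069 and 898 CPM), Met (1117 and 841 CPM) and Sox10 (287 and 469 CPM) were present in the Tie2-GFP and NG2-DsRed intermediate classes, Tyrp1 had no UMI in either, and Pmel had 1 UMI in each.

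Iron reaches most cells bound to transferrin, which is taken up with the transferrin receptor. Inside the cell, iron that is not used is held in ferritin, a shell of heavy chains, which oxidize iron, and light chains, which help to store it. Ferroportin (Slc40a1) is the known route of iron out of a cell, and the copper oxidases ceruloplasmin and hephaestin oxidize the exported iron so that transferrin can bind it. In the SV, intermediate cells lie against the capillaries and carry melanin, a pigment that binds metals.

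Of the 10 messages, 4 carry an iron-responsive element, a short RNA hairpin that iron regulatory proteins hold when iron is scarce. Such a hairpin near the start of a message blocks its translation, and hairpins in the tail of the Tfrc message protect it from decay. The elements are shown because they separate the storage and export genes from the uptake gene, and because RNA counts do not register control of translation. They were found by searching the GENCODE M21 transcripts (GRCm38) for a C, 5 bases, the loop CAGTGN and 5 bases that pair with the first 5, with G-T pairs allowed. Each is printed 5′ to 3′ on the strand of the gene in 30 bases, with the loop in capitals.
Fth1, 5′ UTR, chr19:9982732-9982761, plus strand: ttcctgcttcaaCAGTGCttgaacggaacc
Ftl1, 5′ UTR, chr7:45459778-45459807, minus strand: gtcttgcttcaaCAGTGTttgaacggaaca
Slc40a1, 5′ UTR, chr1:45925464-45925493, minus strand: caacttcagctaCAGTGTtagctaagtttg
Tfrc, 3′ UTR, copy 1, chr16:32631219-32631248, plus strand: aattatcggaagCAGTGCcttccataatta
Tfrc, 3′ UTR, copy 2, chr16:32631598-32631627, plus strand: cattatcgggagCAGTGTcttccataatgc
Tfrc, 3′ UTR, copy 3, chr16:32631663-32631692, plus strand: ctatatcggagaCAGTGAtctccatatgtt
Tfrc, 3′ UTR, copy 4, chr16:32631710-32631739, plus strand: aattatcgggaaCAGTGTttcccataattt
The same pattern stood in 47 of 41462 annotated 5′ UTRs (0.113%) and in 196 of 41784 3′ UTRs (0.469%), and 1 transcript of the annotation, that of Tfrc, held 4 or more copies. No copy of these letters was present in the UTRs of the other 6 members.

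The ferritin genes were higher in intermediate than in endothelial barcodes of both libraries, and than in mural barcodes of the NG2-DsRed library. Fth1 (ENSMUSG00000024661, chr19:9980598-9985098), the heavy chain, had 45481 counts per 1000000 UMIs (CPM) in Tie2-GFP intermediate barcodes and 1814 CPM in endothelial barcodes, and was 25.1-fold higher in the former (interval 24.4 to 25.7). Ftl1 (ENSMUSG00000050708, chr7:45457944-45459884), the light chain, had 4692 and 1304 CPM and was 3.60-fold higher (3.46 to 3.74). In the Tie2-GFP library Cp, Slc40a1 and Hmox1 went the other way and were higher in endothelial barcodes. Mt1, Mt2, Tfrc and Trf differed by less than 2-fold there. In the NG2-DsRed library Cp was again higher in endothelial barcodes, but Hmox1, Trf, Mt1 and Mt2 were more than 2-fold higher in intermediate barcodes. Tfrc and Slc40a1 had too few UMIs to call in that library.

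A gene was called apart if its CPM differed by at least 2-fold between classes that together held at least 20 of its UMIs. By this rule 2 of the 9 members with enough UMIs were higher in Tie2-GFP intermediate barcodes, beside 19.5% of 10516 genes, and 3 of 9 were higher in endothelial barcodes, beside 28.8%. Between endothelial and intermediate barcodes of the NG2-DsRed library, 6 of 7 members were higher in intermediate barcodes (16.1% of 6068 genes) and 1 of 7, Cp, was higher in endothelial barcodes (28.2%). Without the 42 endothelial barcodes with more than 1 mural gene, 4 of the 6 members with enough UMIs were higher in intermediate barcodes and 1 of 6, again Cp, in endothelial barcodes. The share of all genes without those 42 barcodes is not given here, so nothing particular to the members is read from these counts. Mural against intermediate barcodes gave the same split as the full endothelial class. There 6 of 7 members were higher in intermediate barcodes (17.4% of 5038 genes) and Cp was higher in mural barcodes (27.3%), beside 44.7% in either direction. Between mural and endothelial barcodes, 1 of 5 members, Mt2, was apart and was higher in endothelial barcodes (14.3% of 6533 genes), and 0 of 5 were higher in mural barcodes (16.2%), beside 30.4% of genes in either direction. The 4 mural barcodes of the Tie2-GFP library held 12355 UMIs in all, and 86.6% of 9461 genes were apart there (20.9% higher in mural and 65.7% higher in endothelial barcodes), so nothing was read from the 9 of 9 members apart (1 and 8). The median gene was 0.19 (log2) higher in endothelial than in intermediate barcodes of the Tie2-GFP library, 0.22 higher in the NG2-DsRed library, and 0.21 higher in mural than in intermediate barcodes, so each ratio against the intermediate class is shifted by about that much from the typical gene.

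**Figure D1:**
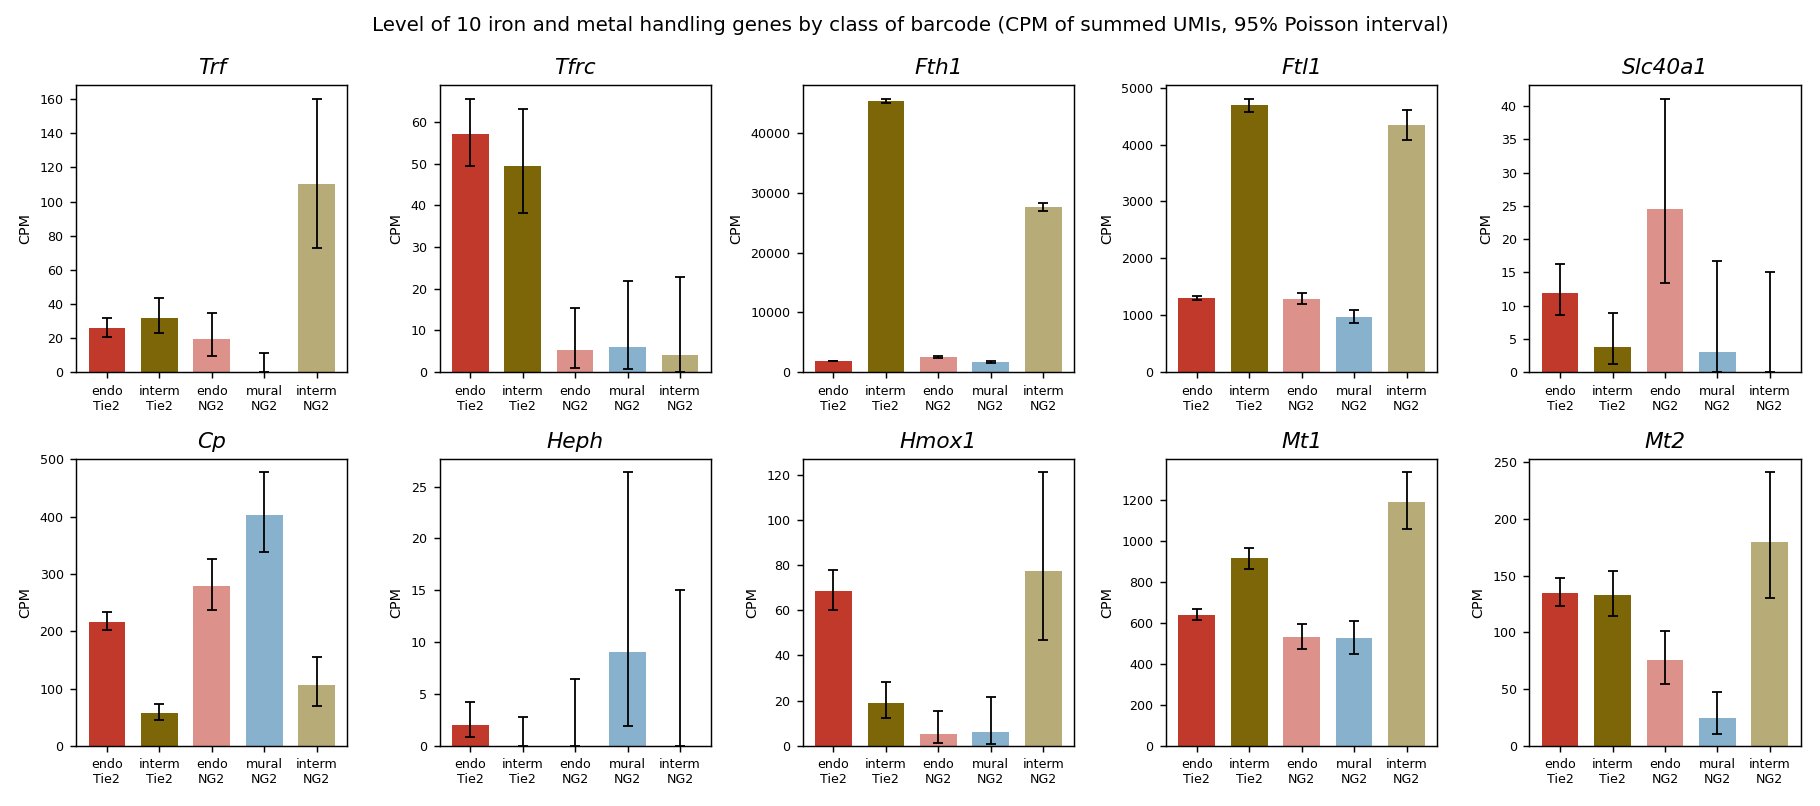
CPM of each of the 10 genes (vertical axis, linear from 0, own scale per gene) in the summed UMIs of the endothelial (endo) and intermediate (interm) barcodes of the Tie2-GFP library and the endothelial, mural and intermediate barcodes of the NG2-DsRed library. Bars are CPM and whiskers the exact 95% Poisson interval. Fth1 and Ftl1 are highest in both intermediate classes, and Cp is highest in mural barcodes at 403 CPM.

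Uptake genes were sparse. Trf (ENSMUSG00000032554, chr9:103204001-103230444) encodes transferrin, the iron carrier of plasma, and Tfrc (ENSMUSG00000022797, chr16:32608920-32632794) its receptor. Tfrc had 57.1 CPM (49.4 to 65.6) in Tie2-GFP endothelial barcodes and 49.5 CPM (38.2 to 63.0) in intermediate barcodes, a ratio of 1.15 whose interval (0.867 to 1.55) includes 1. A Tfrc UMI was present in 120 of 379 endothelial barcodes (31.7%) and in 33 of 87 intermediate barcodes (37.9%), and after thinning every barcode to 3364 UMIs the expected shares were 15.9% of 340 and 13.8% of 81 barcodes. The largest number in 1 barcode was 6 UMIs in the endothelial and 9 in the intermediate class. Counts of the receptor did not separate the classes of this library.

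The NG2-DsRed library held far less Tfrc. It had 3 UMIs in endothelial barcodes (5.26 CPM), 2 in mural barcodes, both in 1 barcode (6.02 CPM), and 1 in intermediate barcodes (4.08 CPM). Side by side, endothelial barcodes had a 10.9-fold lower Tfrc level there than in the Tie2-GFP library (3.66 to 53.1) and intermediate barcodes a 12.1-fold lower level (2.10 to 486). The Tie2-GFP library was at least 2-fold higher for 11.9% of 9730 genes in endothelial barcodes and for 11.8% of 7259 genes in intermediate barcodes. The reporter line, the preparation and the version of the counting software all changed with the library and cannot be told apart.

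Trf had 25.9 CPM (20.8 to 31.9) in endothelial and 32.0 CPM (23.0 to 43.2) in intermediate barcodes of the Tie2-GFP library, and their ratio of 0.811 had an interval of 0.556 to 1.20. The NG2-DsRed intermediate class had 27 UMIs (110 CPM, 72.6 to 160), and its endothelial class had 11 UMIs (19.3 CPM), which made Trf 5.72-fold higher in intermediate barcodes (2.75 to 12.8). Trf UMIs were in 12 of 23 intermediate barcodes (52.2%), in 9 of 58 endothelial barcodes (15.5%) and in 0 of 97 mural barcodes, which allows a share of up to 3.09% of barcodes with a UMI and sets no limit on cells that express the gene. Set against the limit of 3 counts that 0 UMIs allow, Trf was at least 12.2-fold higher in intermediate than in mural barcodes, and the exact interval of the ratio, which also takes in the counting error of the 27 UMIs, began at 9.27-fold. Thinned to 1935 UMIs, the expected shares were 15.9% in intermediate and 3.78% in endothelial barcodes. Transferrin message was therefore present in intermediate barcodes of both libraries and not detectable at this depth in mural barcodes.

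The heavy chain was among the most abundant messages of intermediate barcodes. Fth1 took 4.55% of all UMIs of Tie2-GFP intermediate barcodes and ranked 2 among 13183 genes with a UMI there, behind the nuclear RNA Malat1. It took 2.76% in NG2-DsRed intermediate barcodes, where it ranked 3. In endothelial barcodes it ranked 83 and 42, and in mural barcodes 46. These ranks compare 3′ UMI counts, which count molecules and are not scaled by gene length.

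The single barcodes showed the same separation. Fth1 per 10000 UMIs of a barcode ran from 32.2 through a median of 340 to 1486 in the 87 Tie2-GFP intermediate barcodes, and from 0 through 16.5 to 62.0 in the 379 endothelial barcodes. Of these endothelial barcodes 23 lay above the lowest intermediate barcode and 0 above the intermediate median. In the NG2-DsRed library the lowest, median and highest values were 103, 226 and 732 in 23 intermediate barcodes, 6.90, 21.1 and 56.3 in 58 endothelial barcodes, and 0, 8.98 and 208 in 97 mural barcodes. The endothelial and intermediate ranges did not overlap there. Of the mural barcodes 1 lay inside the intermediate range, and it held 10 UMIs of the intermediate gene Dct beside 27 of Fth1 in 1301 UMIs.

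Within the NG2-DsRed library Fth1 had 27617 CPM in intermediate, 2481 CPM in endothelial and 1682 CPM in mural barcodes. It was 11.1-fold higher in intermediate than in endothelial barcodes (10.5 to 11.8), 16.4-fold higher than in mural barcodes (15.1 to 17.9), and 1.47-fold higher in endothelial than in mural barcodes (1.34 to 1.63). The mural level was 1461 CPM in the 91 barcodes without a Dct UMI. Fth1 was high on both sides of the mitochondrial limit, with 48124 CPM in the 8 intermediate barcodes at or under 5% and 45070 CPM in the 79 above it in the Tie2-GFP library, and 24635 against 29531 CPM in 7 and 16 barcodes of the NG2-DsRed library.

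Dct, a gene of the class rule, also had UMIs outside the intermediate class. It had 60 UMIs in 53 of the 379 Tie2-GFP endothelial barcodes, or 17.5 CPM against 29417 CPM in intermediate barcodes, and the part of RNA from intermediate cells in the Fth1 of vascular barcodes was not tested. A hemoglobin or Alas2 UMI was in 46 of the 379 Tie2-GFP endothelial barcodes, and Fth1 had 1841 CPM in these and 1809 CPM in the other 333. Mt1 had 327 against 694 CPM, Mt2 76.9 against 146 CPM and Slc40a1 5.77 against 13.0 CPM in the same barcodes, all lower in those with red cell UMIs. Tfrc, Trf and Hmox1 were lower there too, and Cp (258 against 209 CPM) and Ftl1 (1447 against 1279 CPM) were higher. Heph had 7 UMIs over both groups, too few to order them, and Slc40a1 had 41. Intervals for this split are not given here.

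**Figure D2:**
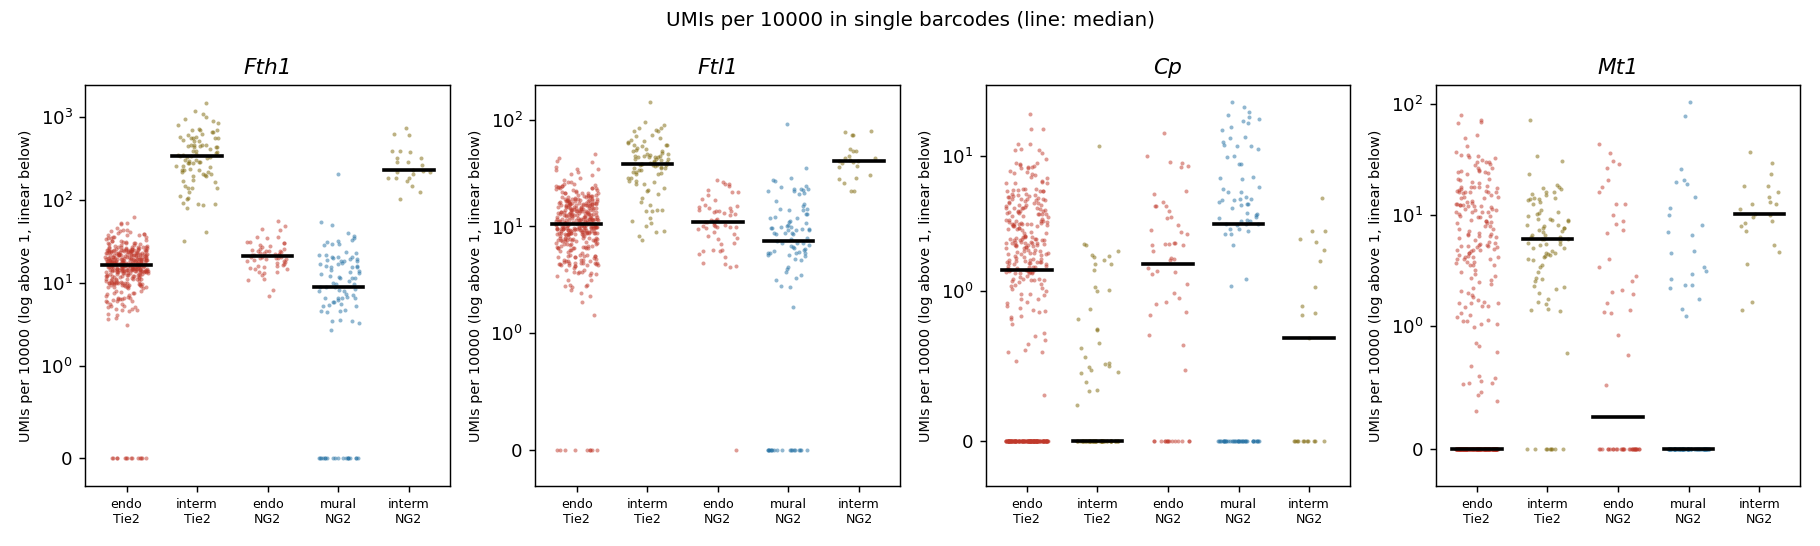
UMIs of Fth1, Ftl1, Cp and Mt1 per 10000 UMIs in single barcodes (vertical axis, log above 1 and linear below, own scale per gene), by class and library, with a line at the median. Fth1 medians are 340 and 226 in the intermediate classes and 16.5, 21.1 and 8.98 in the Tie2-GFP endothelial, NG2-DsRed endothelial and mural classes. Mt1 has many barcodes at 0 beside others above 10 in the vascular classes.

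Ftl1 showed the same order with a smaller range. It had 4340 CPM in NG2-DsRed intermediate barcodes, 1291 CPM in endothelial and 972 CPM in mural barcodes. The light chain was 3.36-fold higher in intermediate than in endothelial barcodes (3.06 to 3.70), 4.47-fold higher than in mural barcodes (3.94 to 5.07) and 1.33-fold higher in endothelial than in mural barcodes (1.16 to 1.52). Per 10000 UMIs, its median was 39.1 in Tie2-GFP intermediate barcodes (7.53 to 148) and 10.6 in endothelial barcodes (0 to 48.3), and 278 of the 379 endothelial barcodes lay above the lowest intermediate barcode. Fewer lay there in the NG2-DsRed library, with 6 of 58 endothelial and 13 of 97 mural barcodes.

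The balance of the chains followed from this. Intermediate barcodes held 9.69 Fth1 UMIs per Ftl1 UMI in the Tie2-GFP library (9.44 to 9.95) and 6.36 in the NG2-DsRed library (5.96 to 6.80). Endothelial barcodes held 1.39 (1.34 to 1.45) and 1.92 (1.76 to 2.10), and mural barcodes 1.73 (1.51 to 1.99). Fth1 exceeded Ftl1 in 87 of 87 and 23 of 23 intermediate barcodes, in 272 of 379 and 48 of 58 endothelial barcodes and in 50 of 97 mural barcodes. Ftl1 has a near-identical copy, Ftl1-ps1, which was listed in the Tie2-GFP matrix with 101 UMIs in endothelial and 99 in intermediate barcodes, against 4479 and 6165 of Ftl1. How reads shared by the pair were counted was not tested.

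**Figure D3:**
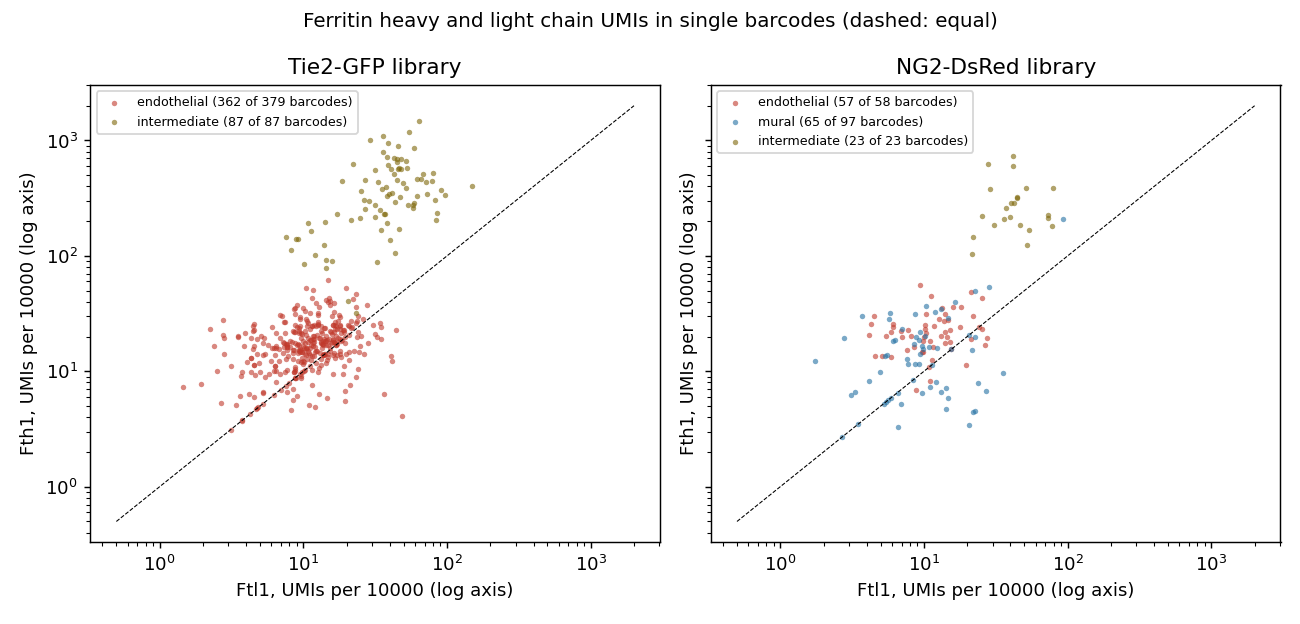
Fth1 against Ftl1 in single barcodes, both as UMIs per 10000 on log axes, for the Tie2-GFP library (left) and the NG2-DsRed library (right). Only barcodes with UMIs of both genes are drawn (numbers in the legend), and the dashed line marks equal counts. Every intermediate barcode lies above the line, and vascular barcodes lie on both sides of it.

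Export genes had another pattern. Slc40a1 (ENSMUSG00000025993, chr1:45908068-45926523), which encodes ferroportin, was found mainly in endothelial barcodes, although counts were few. It had 41 UMIs in 30 of 379 Tie2-GFP endothelial barcodes (11.9 CPM, 8.57 to 16.2) and 5 UMIs in 4 of 87 intermediate barcodes (3.80 CPM, 1.24 to 8.88), a ratio of 3.14 (1.24 to 10.2). It had 14 UMIs in 10 of 58 NG2-DsRed endothelial barcodes (24.5 CPM), 1 UMI in 97 mural barcodes (3.01 CPM) and 0 in 23 intermediate barcodes. These NG2-DsRed counts were below 20 UMIs and were not called. With barcodes held to the study's limits, which left 6 Tie2-GFP intermediate barcodes, the ratio was 1.36. Those 6 held at most the 5 UMIs of the full class, so this value is imprecise, and its interval is not given here.

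Cp (ENSMUSG00000003617, chr3:19957054-20009145), the oxidase ceruloplasmin, was higher in both vascular classes than in intermediate barcodes. It had 403 CPM in mural (338 to 478), 279 CPM in endothelial (237 to 325) and 106 CPM in intermediate barcodes (69.3 to 156) of the NG2-DsRed library. Cp was 3.80-fold higher in mural (2.48 to 6.03) and 2.62-fold higher in endothelial (1.73 to 4.14) than in intermediate barcodes, and the ratio of mural to endothelial was 1.45 (1.14 to 1.83). A Cp UMI was in 58 of 97 mural, 43 of 58 endothelial and 12 of 23 intermediate barcodes, and at 1935 UMIs the expected shares were 49.4%, 32.9% and 17.5%. The order of shares by depth-matched barcodes was thus that of the CPM.

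Tie2-GFP endothelial barcodes had Cp at 217 CPM (201 to 233), in 240 of 379 barcodes, and intermediate barcodes at 57.8 CPM (45.6 to 72.4), in 32 of 87. The ratio was 3.75 (2.96 to 4.81). Here the level in intermediate barcodes differed across the mitochondrial limit, at 141 CPM in the 8 barcodes at or under it and 44.8 CPM in the 79 above it. The whole class held 76 Cp UMIs, 19 of them in 1 barcode, and no interval is given for this split. The part of this difference in the result was not tested. Within the study's limits (368 endothelial and 6 intermediate barcodes) the ratio was no longer 2-fold, and Cp was 1.01-fold higher in intermediate barcodes. Cp in the NG2-DsRed intermediate class was 136 CPM in 7 barcodes at or under the limit and 87.1 CPM in 16 above it.

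Heph (ENSMUSG00000031209, chrX:96455359-96574485), the membrane-bound oxidase hephaestin, was close to absent from the counts. It had 7 UMIs in Tie2-GFP endothelial barcodes (2.04 CPM), 3 in mural barcodes of the NG2-DsRed library (9.03 CPM) and 0 in the other 3 large classes. Since 1 UMI was the most in any barcode, no order between classes could be read from it.

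**Figure D4:**
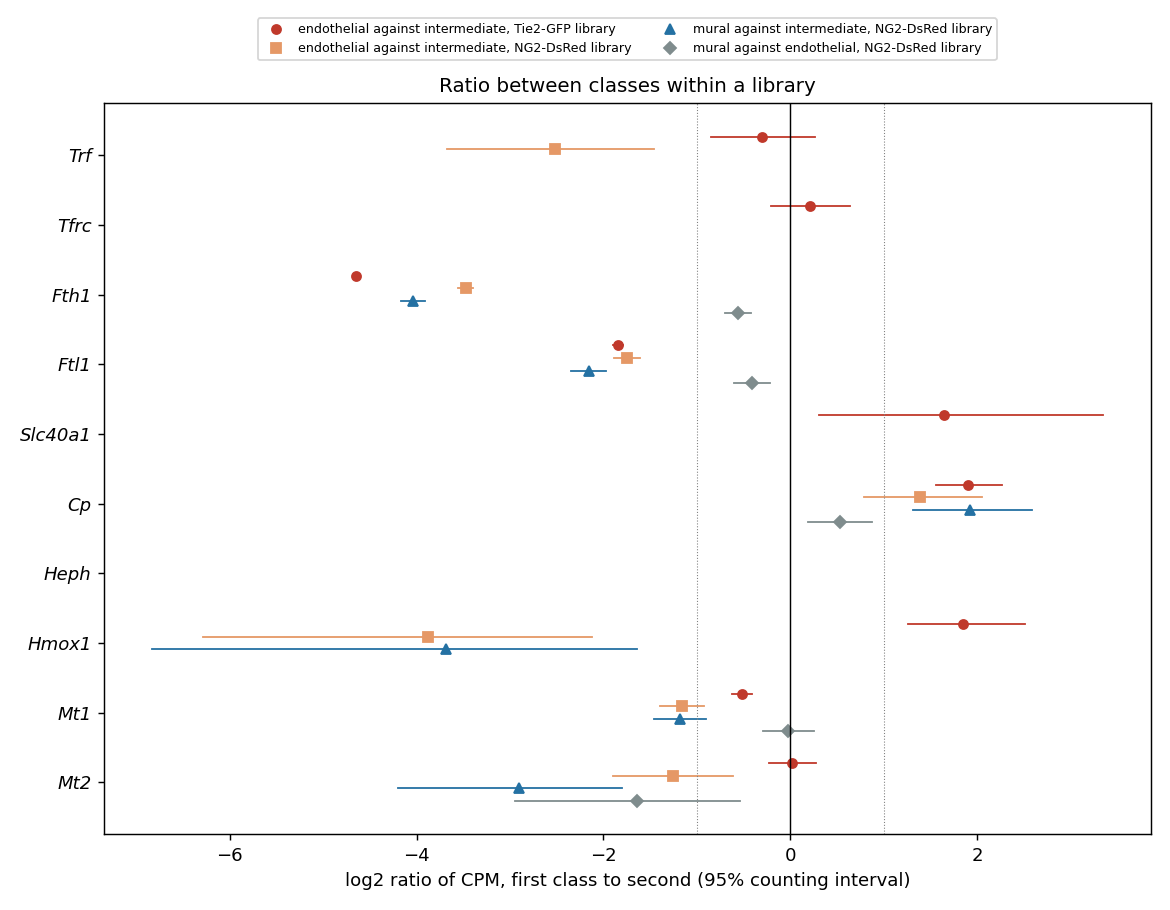
Log2 ratio of CPM between classes inside a library (horizontal axis) for each member with at least 20 UMIs in the classes compared, with 95% counting intervals. The solid line marks equal CPM, dotted lines mark 2-fold, and a negative value is higher in the class named second. Fth1 and Ftl1 lie left of the 2-fold line in all 3 comparisons with intermediate barcodes, Cp lies right of it in all 3, and Trf of mural against intermediate barcodes (0 against 27 UMIs) and Heph have no point.

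Hmox1 (ENSMUSG00000005413, chr8:75093621-75100589) encodes heme oxygenase 1, the inducible enzyme that releases iron from heme, and its order differed between the libraries. In Tie2-GFP barcodes it had 68.7 CPM in the endothelial class (60.2 to 78.1), with 236 UMIs in 101 of 379 barcodes, and 19.0 CPM in the intermediate class (12.3 to 28.1), with 25 UMIs in 19 of 87. The ratio was 3.61 (2.39 to 5.70). In NG2-DsRed barcodes the intermediate class was highest, with 19 UMIs in 12 of 23 barcodes (77.6 CPM, 46.7 to 121), and the endothelial and mural classes had 3 and 2 UMIs (5.26 and 6.02 CPM). Hmox1 was 14.8-fold higher in intermediate than in endothelial barcodes (4.34 to 77.9) and 12.9-fold higher than in mural barcodes (3.11 to 114). The ratio thus had opposite directions in the libraries, and this difference was not tested.

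Hmox1 is a stress-response gene, and stress genes that can move with tissue handling differed between classes too. The summed level of Fos, Jun, Junb, Egr1, Atf3, Hspa1a and Hspa1b, all 7 with UMIs in every class, was 23612 CPM in endothelial and 2533 CPM in intermediate barcodes of the Tie2-GFP library, and 26561, 19525 and 5291 CPM in endothelial, mural and intermediate barcodes of the NG2-DsRed library. Their part in the Hmox1 result was not tested. The top 10% of Tie2-GFP endothelial barcodes by Hmox1 count (38 barcodes) held 72.5% of its UMIs.

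The metallothioneins Mt1 (ENSMUSG00000031765, chr8:94179082-94180327) and Mt2 (ENSMUSG00000031762, chr8:94172664-94173568) encode small cysteine-rich proteins that bind zinc and copper. Mt1 had 913 CPM in intermediate and 638 CPM in endothelial barcodes of the Tie2-GFP library and was 1.43-fold higher in the former (1.33 to 1.54). It had 1188, 531 and 524 CPM in intermediate, endothelial and mural barcodes of the NG2-DsRed library, and was 2.24-fold higher in intermediate than in endothelial barcodes (1.90 to 2.64) and 2.27-fold higher than in mural barcodes (1.87 to 2.75). Mural and endothelial barcodes had an Mt1 ratio of 0.986 (0.814 to 1.19).

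How the Mt1 molecules were spread over barcodes differed more than the summed level. A UMI of Mt1 was present in 78 of 87 Tie2-GFP intermediate barcodes (89.7%) and in 174 of 379 endothelial barcodes (45.9%), or in an expected 79.1% and 39.2% at 3364 UMIs. It was present in 23 of 23 NG2-DsRed intermediate, 29 of 58 endothelial and 24 of 97 mural barcodes, or in an expected 81.7%, 32.2% and 21.8% at 1935 UMIs. The top 10% of barcodes held 69.8% of Mt1 UMIs in Tie2-GFP endothelial barcodes and 88.5% in mural barcodes, where 1 barcode held 60 of 174 UMIs. In Tie2-GFP intermediate barcodes they held 41.3%. For comparison, the top 10% held 27.7% of Fth1 UMIs in Tie2-GFP endothelial barcodes. Mt1 was thus found in most intermediate barcodes and in 50% or fewer of the barcodes of each vascular class.

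Mt2 was at 135 CPM (123 to 148) in endothelial and 133 CPM (114 to 154) in intermediate barcodes of the Tie2-GFP library, a ratio of 1.01 (0.851 to 1.21). In the NG2-DsRed library it had 180 CPM in intermediate (44 UMIs), 75.3 CPM in endothelial (43 UMIs) and 24.1 CPM in mural barcodes (8 UMIs). Mt2 was 2.38-fold higher in intermediate than in endothelial barcodes (1.53 to 3.72; 1.58-fold, under the 2-fold rule, without the 42 endothelial barcodes with mural genes), 7.46-fold higher than in mural barcodes (3.47 to 18.4) and 3.13-fold higher in endothelial than in mural barcodes (1.45 to 7.71).

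The pair was often found together. Of 379 Tie2-GFP endothelial barcodes, 107 had UMIs of both genes, 67 of Mt1 alone, 9 of Mt2 alone and 196 of neither, and barcodes with neither had a median depth of 7292 UMIs against 8370 for those with both. Neither gene was found in 72 of 97 mural barcodes and in 0 of 23 NG2-DsRed intermediate barcodes. These 2 counts are not matched for depth. Mural barcodes with neither had a median of 2820.5 UMIs against 4847.5 for those with both, and NG2-DsRed intermediate barcodes with both had 11157. In Tie2-GFP intermediate barcodes the medians for neither and both were 4314 and 19731.5 UMIs. Over barcodes, the logarithm of UMIs per 10000 of Mt1 and Mt2 had a Pearson correlation of 0.758 in 379 Tie2-GFP endothelial, 0.582 in 87 intermediate, 0.571 in 58 NG2-DsRed endothelial, 0.415 in 97 mural and 0.392 in 23 intermediate barcodes, as a description of barcodes that share a library and its range of depth. The ferritin chains had 0.437, 0.532, 0.217, 0.210 and 0.082 in the same order.

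Of the members with a UMI in at least 50% of Tie2-GFP endothelial barcodes, Fth1, Ftl1 and Cp, the genes most like each were sought among 4083 genes by the same correlation over the 379 barcodes. Fth1 was most like the ribosomal protein genes Rpl24 (0.703), Rps4x (0.696) and Rps23 (0.688). Ftl1 was most like Rps28 (0.527), the elongation factor gene Eef1a1 (0.515) and Chchd2 (0.500). The likeness of Cp was weak, at 0.285 with Reck, 0.236 with Rnd1 and 0.231 with Mgp.

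Inside the endothelial class of the Tie2-GFP library, 113 barcodes leaned arterial (at least 2 of Bmx, Sema3g, Gja4, Gja5, Hey1 and Vegfc, and at most 1 of the venous genes Nr2f2, Slc38a5, Vcam1, Ackr1 and Lcn2) and 42 leaned venous by the reverse rule. Both metallothioneins had more UMIs per total on the arterial side, short of 2-fold. Mt1 had 852 and 477 CPM, a ratio of 1.79 (1.55 to 2.07), with UMIs in 61.1% of arterial-leaning and 23.8% of venous-leaning barcodes, although the latter were deeper (median 8593 against 10938.5 UMIs). Mt2 had 183 and 104 CPM, a ratio of 1.77 (1.30 to 2.44). Trf was 2.24-fold higher in venous-leaning barcodes (1.13 to 4.43), with 19 UMIs (37.9 CPM) there and 20 UMIs (16.9 CPM) in arterial-leaning barcodes. Among the members with enough UMIs it alone was past 2-fold, beside 9.61% of 7721 genes. Slc40a1 had 6 and 11 UMIs (5.06 and 21.9 CPM), too few to call. Fth1, Ftl1, Tfrc, Cp and Hmox1 had ratios of 0.910, 0.920, 1.07, 0.893 and 0.781.

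Inside the mural class of the NG2-DsRed library, 40 barcodes were contractile, with at least 2 of Acta2, Tagln and Myh11, and 57 were not. Cp was 2.85-fold higher in the non-contractile barcodes (1.94 to 4.27), with 615 against 216 CPM and UMIs in 70.2% against 45.0% of barcodes, although these were the shallower ones (median 2528 against 3749 UMIs). Mt1 was 4.42-fold higher in contractile barcodes (2.95 to 6.84, 145 against 29 UMIs), of which 1 barcode held 60 UMIs. These 2 of the 4 members with enough UMIs were past 2-fold, beside 19.6% of 3200 genes. Fth1 had a ratio of 1.06 (0.890 to 1.25) and Ftl1 of 0.758 (0.605 to 0.949).

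Other genes of iron, heme, copper and zinc handling were taken from a list of 56, all present in both matrices. Between endothelial and intermediate barcodes of the Tie2-GFP library, 42 had enough UMIs, 15 were at least 2-fold higher in endothelial and 7 in intermediate barcodes, and the median log2 ratio was 0.12 beside 0.19 for all genes. The NG2-DsRed library gave 9 and 5 of 27, with a median of 0.29 beside 0.22. The shares in all genes, given above, were 28.8% and 19.5%, and 28.2% and 16.1%. Between mural and endothelial barcodes 3 of 28 were higher in mural and 6 in endothelial barcodes, beside 16.2% and 14.3% of all genes. Between mural and intermediate barcodes 6 of 22 were higher in mural and 8 in intermediate barcodes, beside 27.3% and 17.4%. In the Tie2-GFP library 8 of 40 were higher in the 4 mural barcodes and 29 in endothelial barcodes, beside the high share of all genes given above.

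Several listed genes were higher in intermediate barcodes. Slc48a1, a heme transporter of endolysosomes, had 192 CPM against 33.5 CPM in Tie2-GFP intermediate and endothelial barcodes, 5.73-fold higher (4.58 to 7.20), and 371 CPM against 47.3 CPM in the NG2-DsRed library, 7.85-fold higher (5.06 to 12.6). It was 10.3-fold higher in intermediate than in mural barcodes (5.61 to 20.6). Gpx4, which reduces lipid peroxides, was 2.91-fold (2.73 to 3.11) and 3.76-fold (3.23 to 4.38) higher in intermediate than in endothelial barcodes of the Tie2-GFP and NG2-DsRed libraries. Fech, which inserts iron to form heme, was 3.11-fold (2.20 to 4.42) and 2.80-fold (1.11 to 7.23) higher. Mt3, a metallothionein known from brain, had 129 UMIs in Tie2-GFP intermediate and 7 in endothelial barcodes and was 48.2-fold higher (22.7 to 122). These UMIs were in 19.5% of the Tie2-GFP intermediate barcodes, so most of that class had none. The NG2-DsRed library had 7 Mt3 UMIs in intermediate (28.6 CPM) and 1 in endothelial barcodes, too few to call. In the Tie2-GFP library the zinc and iron importer Slc39a14 was 14.8-fold higher in intermediate barcodes (7.95 to 30.1). The copper pump Atp7a was past 2-fold in the NG2-DsRed library, at 2.97-fold higher in intermediate than in endothelial barcodes (1.25 to 7.22).

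Other listed genes were higher in endothelial barcodes. Slc39a8, an importer of zinc, manganese and iron, had 797 UMIs in Tie2-GFP endothelial and 3 in intermediate barcodes (102-fold, 34.7 to 494), and 72 UMIs in NG2-DsRed endothelial barcodes against 0 in both its mural and its intermediate barcodes. Epas1, a hypoxia-inducible factor, was 50.3-fold (31.7 to 84.9) and 20.4-fold (10.3 to 47.7) higher in endothelial than in intermediate barcodes. Bach1, a repressor of Hmox1 that senses heme, was 25.5-fold (14.9 to 48.2) and 4.18-fold (1.51 to 16.1) higher. The zinc exporter Slc30a1 was 10.4-fold (3.43 to 51.8) and the zinc importer Slc39a10 5.36-fold (2.82 to 11.5) higher in NG2-DsRed endothelial than intermediate barcodes, and 8.50-fold (3.48 to 27.0) and 4.55-fold (2.69 to 8.20) higher than in mural barcodes. Lcn2, a carrier of iron-binding siderophores, had 66 UMIs, and Flvcr2, of the heme transporter family, had 94 UMIs in Tie2-GFP endothelial barcodes, and both had 0 in intermediate barcodes. Lower in mural than in endothelial barcodes were also the copper chaperone Atox1 (5.00-fold, 3.63 to 7.06), the superoxide dismutase Sod1 (2.66-fold, 1.53 to 4.89) and Hfe, a partner of the transferrin receptor (2.91-fold, 1.09 to 9.74).

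Of the wider list, 2 genes were named as higher in mural than in endothelial barcodes. Steap4, a reductase of iron and copper, had 144 UMIs (433 CPM) in mural, 30 UMIs (52.6 CPM) in NG2-DsRed endothelial and 0 in intermediate barcodes, and was 8.24-fold higher in mural than in endothelial barcodes (5.53 to 12.7). Lrp1, the receptor that takes up heme with hemopexin, had 430, 96.3 and 20.4 CPM in mural, endothelial and intermediate barcodes, and was 4.47-fold higher in mural than in endothelial barcodes (3.25 to 6.21) and 21.1-fold higher than in intermediate barcodes (8.83 to 65.9). Because 42 of the 58 NG2-DsRed endothelial barcodes carried mural genes, the part of mural RNA in the endothelial levels of Steap4 and Lrp1 was not tested. Tie2-GFP endothelial barcodes had 56 Steap4 UMIs (16.3 CPM), in 5.54% of the barcodes, and intermediate barcodes 0. More than 1 mural gene was present in 32 of these 379 endothelial barcodes, and the part of mural RNA there was not tested either. Epas1 and Bach1 were 22.8-fold (11.4 to 53.3) and 4.42-fold (1.52 to 17.5) higher in mural than in intermediate barcodes. Higher in intermediate than in mural barcodes, beside Slc48a1, were Gpx4 (3.74-fold, 3.12 to 4.51), Blvra, which makes bilirubin from the product of heme oxygenase (2.71-fold, 1.02 to 7.94), Atp7a with the same counts and ratio as Blvra, Sod1 (2.71-fold, 1.45 to 5.30) and Atox1 (2.46-fold, 1.66 to 3.67).

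**Figure D5:**
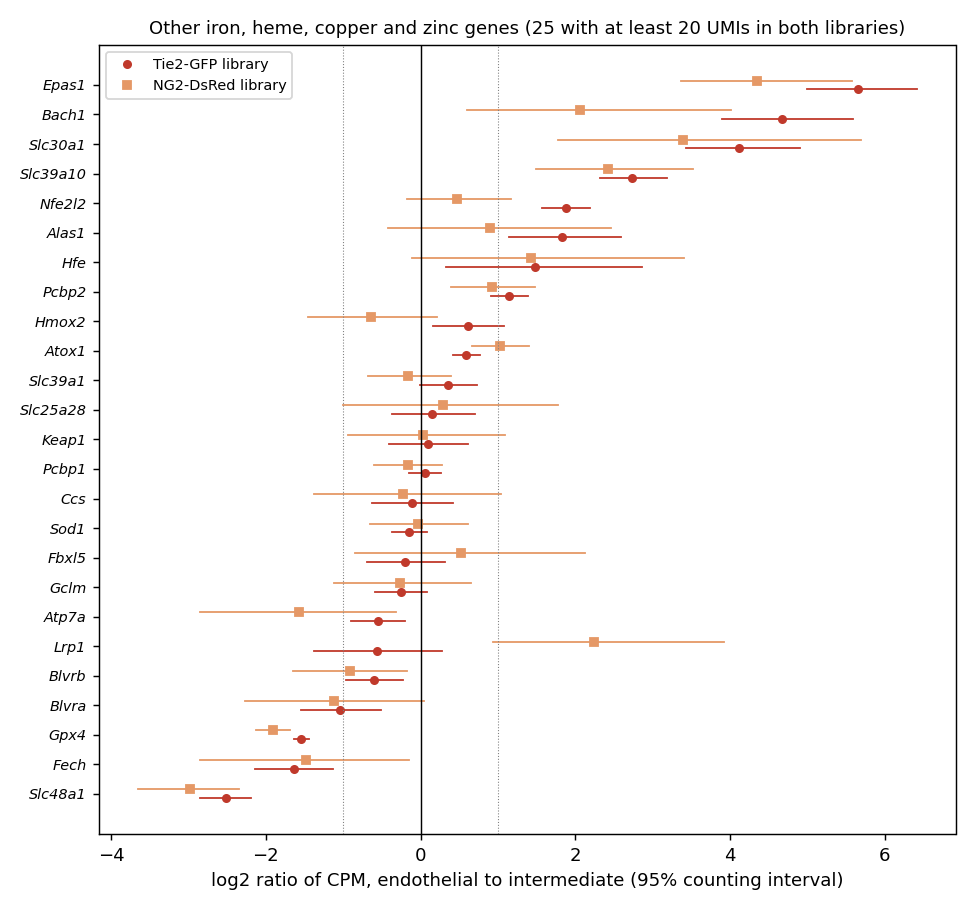
Log2 ratio of CPM, endothelial to intermediate barcodes (horizontal axis), in the Tie2-GFP and the NG2-DsRed library for 25 genes of the wider iron, heme, copper and zinc list with UMIs in every class compared, with 95% counting intervals. The solid line marks equal CPM and dotted lines 2-fold. Of the 25 genes drawn, 9 are past 2-fold in the same direction in both libraries and 0 in opposite directions. Opposite signs are seen for 5 of those drawn. Enough UMIs in both libraries were present for 27 genes. Among all genes, 48.3% (Tie2-GFP) and 44.3% (NG2-DsRed) are past 2-fold in either direction. How many of all genes agree between the libraries was not counted, so no agreement particular to the list is read from these counts.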

How the data were processed

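SV tissue of Tie2-GFP and NG2-DsRed mice was dissociated, sorted when needed and sequenced on a 10x Chromium 3′ platform. The authors deposited 1 matrix of raw UMI counts (genes by barcodes, not normalized) per library. The matrix headers name software versions 7.0.0 (Tie2-GFP, Cell Ranger) and 3.0.0 (NG2-DsRed), and the submitters' processing notes name bcl2fastq 2.20.0.422 and the build mm10; the intron setting and gene annotation are not given in the sources used here. The matrices list 32285 and 27998 genes.

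All deposited barcodes were put to the class rules, without a doublet caller. The 2 NG2-DsRed barcodes that met more than 1 rule, and 163 Tie2-GFP and 21 NG2-DsRed barcodes that met none, entered no class. UMIs were summed per class and divided by all UMIs of the class (CPM, with exact Poisson intervals). Shares have exact Clopper-Pearson intervals, which are not printed, and ratios have exact conditional binomial intervals, all at 95% and for counting error only. The limit for 0 UMIs is 3 counts per class. Thinned shares are expectations for a fixed number of UMIs per barcode, and shallower barcodes were left out. Intervals came from scipy 1.17.1 under Python 3.11.15 (tables read with pandas 2.3.3, arrays with numpy 2.4.6) and were tested on simulated data. The simulation drew independent counts per gene, so it did not cover the uneven spread of UMIs over barcodes. With 1 library per line no differential test was run. The study's limits, used as an alternative, were 200 to 6000 genes and 200 to 30000 UMIs for Tie2-GFP, 200 to 5000 genes and 200 to 20000 UMIs for NG2-DsRed, at most 5% mitochondrial and 40% ribosomal UMIs; 399 of 633 and 165 of 201 barcodes pass them.

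All 10 members are named. Of the 56 listed genes, at most 6 per direction and comparison are named, by the largest ratio among those past 2-fold whose interval excludes 1; 1 gene that meets this rule is not reported here. Correlations used the natural log of 1 plus UMIs per 10000. The members, classes and lists were chosen with earlier results of these data known.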

Additional observations from a re-analysis of the deposited data

Results flagged for a closer look

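Hmox1 had opposite directions in the libraries. The log2 ratio of endothelial to intermediate barcodes was 1.85 in the Tie2-GFP library (236 against 25 UMIs) and -3.88 in the NG2-DsRed library (3 against 19 UMIs), and neither interval reached equal levels. The difference between the libraries was not tested, as each line has 1 library, and reporter line, preparation and software version cannot be told apart.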

How the results depend on the processing

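Holding barcodes to the study's limits left 6 Tie2-GFP intermediate barcodes and lowered the count of members apart from endothelial barcodes from 5 to 3. The log2 ratio of Cp went from 1.91 to -0.016, which is close to equal levels. Slc40a1 went from 3.14-fold to 1.36-fold and Hmox1 from 3.61-fold to 7.96-fold. The full class of 87 intermediate barcodes held 5 Slc40a1 and 25 Hmox1 UMIs, and the 6 barcodes left held only part of the class. Counts and intervals for those 6 are not given here, so no change of level is read from these 2 ratios. Mitochondrial content, the limits on genes and UMIs and the number of barcodes change together there, and the cause was not tested. With no minimum of UMIs, 4 members in place of 1 were apart between mural and endothelial barcodes of the NG2-DsRed library. Those added had few UMIs, with 0 against 11 for Trf, 1 against 14 for Slc40a1 and 3 against 0 for Heph. Asking in addition that the interval exclude 1 left 3 of 9 members apart between the 4 Tie2-GFP mural barcodes and the endothelial class, and scaling to the median gene could not be computed for that comparison. Shares of all genes under these alternative settings are not given here, so nothing particular to the members is read from their counts. Leaving out endothelial barcodes with more than 1 mural gene left 16 in the NG2-DsRed library, where Mt1 went from 2.24-fold to 3.58-fold and Mt2 from 2.38-fold to 1.58-fold higher in intermediate barcodes. In the same setting Mt1 in mural against endothelial barcodes went from a ratio near 1 to 1.58-fold higher in mural, and Mt2 from 3.13-fold to 4.71-fold higher in endothelial barcodes. Giving each barcode equal weight moved Slc40a1 to 5.97-fold (Tie2-GFP), Mt2 to 5.44-fold higher in endothelial than in mural barcodes, and Hmox1 to 23.8-fold and 23.0-fold higher in intermediate than in endothelial and mural barcodes. Leaving out the 2 Tie2-GFP endothelial barcodes with at least 10 red cell UMIs, or Fth1 from the total, both added after seeing the data, reversed no ratio. Fth1 and Ftl1 stayed past 2-fold higher in intermediate barcodes under every alternative run. Tfrc, Slc40a1, Heph and Hmox1 each had under 25 UMIs over the 3 classes of the NG2-DsRed library, which limits the precision of their values there. No paired analysis was possible because each group has 1 library and no result comes from a test.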
